A study of Mus musculus with 7 samples.

Results

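Peaks of Pygo2 and β-catenin were examined around 8 genes of the Hedgehog pathway in mouse branchial arches: Shh (ligand), Ptch1 (receptor), Hhip (ligand trap), Smo and Sufu (transducers) and Gli1, Gli2 and Gli3 (transcription factors). They were chosen for their place in the pathway and not by any peak, although earlier results of these data were known. They are 8 of 21883 protein-coding genes with a position on chromosomes 1 to 19, X or Y. Every peak inside a gene or within 100 kb of its nearer end was taken, with the distance measured from the centre of the peak. The peaks nearest to this limit were 92.5 kb from Sufu on the inside and 110 kb from Sufu on the outside. The windows of the 8 genes do not overlap, so no peak is counted for more than 1 of them.

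The series is a ChIP-seq study of branchial arches from wild-type embryos at 10.5 days post coitum, a stage at which the arches hold neural crest mesenchyme, surface and pharyngeal epithelium, mesoderm and vessels. Its 7 libraries are Pygo2 ChIPs from BA1 and BA2, β-catenin ChIPs from BA1 and BA2, an IgG control labelled BA1, and inputs of BA1 and BA2. The labels do not say what BA1 and BA2 stand for. All groups are from branchial arches, but whether BA1 and BA2 are the same tissue is therefore not known. They share their preparation, with chromatin from about 200 arches fixed for 40 min in EGS (1.5 mM), which links proteins to each other. For the last 20 min EGS was joined by 1% formaldehyde. The peak lists of the Pygo2 BA2 library (7150 peaks, 15009636 tags) and of the β-catenin BA2 library (1079 peaks, 13672937 tags) are described here, and for both the control given in the file headers is IgG BA1. The lists carry no expression values, so the tissue label was not checked against marker genes. Each list comes from 1 library of pooled tissue, so no count below has a replicate error, no test between conditions can be made, and a site used by few cells cannot be told apart from a weak site in many.

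Hedgehog signalling starts when the secreted ligand binds Ptch1, which otherwise holds the membrane protein Smo inactive. Active Smo, acting at the primary cilium, releases the Gli transcription factors from Sufu and from processing into repressors. Ptch1, Hhip and Gli1 are themselves transcribed in response, and the proteins of Ptch1 and Hhip bind the ligand and limit its spread. In the branchial arches the ligand is made by epithelium, and the neighbouring crest mesenchyme, which forms facial skeleton, is the main responding tissue. The ChIP targets belong to another pathway: β-catenin carries the canonical Wnt signal into the nucleus, where Pygo2 joins it through the adaptor Bcl9.

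Pygo2 peaks lay near 5 of the 8 Hedgehog genes, and β-catenin peaks near none of them. Sufu had 13 Pygo2 peaks in its window, Gli2 had 6, Ptch1 and Gli1 had 3 each and Smo had 1, which gives 26 peaks in 2.38 Mb. Shh, Hhip and Gli3 had none. Across all protein-coding genes, 57.6% had a Pygo2 peak inside or within 100 kb, so 5 of 8 was close to the share of genes in general. Within 10 kb the same 5 genes kept a peak, whereas 30.0% of all protein-coding genes had one at that distance. Inside the gene body a Pygo2 peak was present at Ptch1, Sufu, Gli2 and Gli1, against 15.0% of all protein-coding genes. The Hedgehog windows differ in length with the genes, which span 10.3 kb at Shh and 266 kb at Gli3 against a median of 17.2 kb for all protein-coding genes, so these shares are descriptions and not tests.

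**Figure D1:**
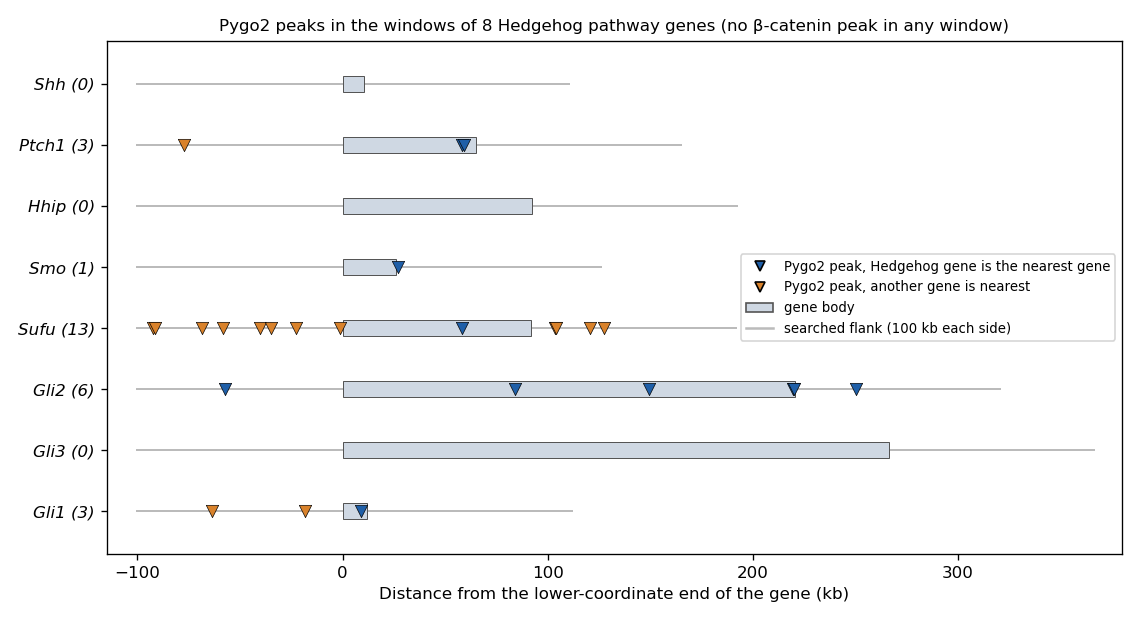
Positions of Pygo2 peaks (triangles) around 8 Hedgehog genes, with the distance from the lower-coordinate end of the gene in kb on the horizontal axis, 1 gene per row and the number of peaks in parentheses. All 6 peaks at Gli2 have Gli2 as their nearest gene, whereas 12 of the 13 at Sufu lie nearer to other genes, and Shh, Hhip and Gli3 are empty.

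No β-catenin peak fell in any of the 8 windows, and accordingly no overlapping pair of peaks did. The background over all protein-coding genes was 17.2% with a β-catenin peak inside or within 100 kb, 5.46% with one inside or within 10 kb, and 6.32% with an overlapping pair inside or within 100 kb. Around all protein-coding genes, windows of the same width held 0.516 β-catenin peaks per Mb, a density at which the 2.38 Mb of the Hedgehog windows would hold 1.23. A count of 0 allows up to 3 peaks, or 1.26 per Mb, counting error only. A density of β-catenin peaks lower than that of genes in general was therefore not detectable here. The nearest β-catenin peak was 0.181 Mb from Gli1, inside Shmt2, and then 0.613 Mb from Sufu, 0.788 Mb from Smo, 0.823 Mb from Hhip, 1.24 Mb from Ptch1, 1.67 Mb from Shh, 4.27 Mb from Gli3 and 12.8 Mb from Gli2. The order puts the 2 long transcription factor genes farthest away. Only 1.4% of all protein-coding genes lay farther from a β-catenin peak than Gli2 did, and 7.22% lay farther than Gli3.

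The ligand gene Shh (chromosome 5, 28456840 to 28467101), which encodes Sonic hedgehog, had no peak of either protein in its window. Its nearest Pygo2 peak lay 728 kb away at 29195111 to 29195277, inside Rnf32. Only 12.1% of all protein-coding genes were farther from a Pygo2 peak than Shh, where the median distance of all protein-coding genes was 62.5 kb.

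The receptor gene Ptch1 (chromosome 13, 63508328 to 63573460) carried a pair of Pygo2 peaks at its upstream part. The peaks spanned 63566418 to 63566584 and 63567496 to 63567662, and their centres were 1.08 kb apart. The RefSeq promoter table lists the start of Ptch1 at 63565735 on the minus strand, so the peaks lay 0.766 kb and 1.84 kb upstream of that start, although still inside the annotated gene, whose span reaches 7.72 kb upstream of that start. Both were nearer to Ptch1 than to any other protein-coding gene, and 5.67% of all protein-coding genes were the nearest gene of at least 2 Pygo2 peaks within 100 kb. The third peak in the window, at 63431090 to 63431256, was 77.2 kb beyond the other end of Ptch1, inside the Fanconi anaemia gene Fancc and 0.572 kb downstream of a listed start. Hhip (chromosome 8, 79965850 to 80058060), the other membrane-bound antagonist of the ligand, had no peak in its window. Its nearest Pygo2 peak was 257 kb away.

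The transducer genes differed in how their peaks were placed. Smo (chromosome 6, 29735497 to 29761366), the membrane protein that passes the signal on, had a single Pygo2 peak at 29762338 to 29762504, 1.05 kb beyond the gene end opposite its listed start and 26.9 kb downstream of that start. Smo was its nearest protein-coding gene by span. The nearest listed start was that of Ahcyl2, with the peak 6.02 kb upstream of it, so the peak cannot be assigned to Smo by distance alone. Sufu (chromosome 19, 46396896 to 46488804), the cytoplasmic inhibitor of the Gli proteins, had 13 Pygo2 peaks in its window, a number that 0.416% of all protein-coding genes reach or exceed. The Sufu window also holds 9 other protein-coding genes, and 12 of its 13 peaks were nearer to another gene. The single peak inside Sufu lay at 46455150 to 46455316, 58.3 kb downstream of the listed start. Among the 12 others, 8 lay on the side of lower coordinates, at Nfkb2 (2 peaks), Fbxl15, Cuedc2, Mfsd13a (3 peaks) and Actr1a, and 4 lay on the other side, nearest to Trim8 (3 peaks) and Arl3. Of the 13, 6 were within 1 kb of a start listed for another gene, and no start of Trim8 was listed near its peaks.

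The Pygo2 peak closest to Sufu, at 46395814 to 46395980, was 0.999 kb from the Sufu start and 0.156 kb from that of Actr1a, a dynactin subunit gene read in the opposite direction. The whole peak lay inside the promoter window of Actr1a, which is printed because this peak would be counted for Sufu by distance alone. The window runs from 250 bases before the listed start to 50 bases after it, at chr19:46395692-46395991 on the minus strand of GRCm38.p6, and its capitals mark the 167 bases under the peak.
Actr1a: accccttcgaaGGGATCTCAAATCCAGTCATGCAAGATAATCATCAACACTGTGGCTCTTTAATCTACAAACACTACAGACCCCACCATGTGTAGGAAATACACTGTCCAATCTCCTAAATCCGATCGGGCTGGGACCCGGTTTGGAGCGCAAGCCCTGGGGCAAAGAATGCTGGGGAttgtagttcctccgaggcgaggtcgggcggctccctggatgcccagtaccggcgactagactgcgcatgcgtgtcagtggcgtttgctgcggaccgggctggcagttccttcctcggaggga

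Gli2 (chromosome 1, 118834061 to 119054405), the main transcriptional activator of the pathway, had Pygo2 peaks at its start, within its body and on both flanks, and all 6 had Gli2 as the nearest protein-coding gene. No other protein-coding gene lies in its window. Of all protein-coding genes, 23.8% were the nearest gene of a Pygo2 peak inside or within 100 kb, and 0.233% (51 genes) were so for at least 6. Genes with close neighbours lose peaks to them in this count, which Gli2 does not, so the low share partly reflects its isolation. With every peak in the window counted, 7.3% of all protein-coding genes had at least 6. The peak at 119053523 to 119053689 was centred 13 bp downstream of the listed start, and that at 119054000 to 119054166 was centred 464 bp upstream of it. Further inside the gene lay the peaks at 118983259 to 118983425, 70.3 kb downstream of the start, and at 118918296 to 118918462, 135 kb downstream. Outside the gene, 1 peak lay 30.2 kb beyond the start end at 119084502 to 119084668, and 1 lay 57.2 kb beyond the other end at 118776794 to 118776960.

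Gli3 (chromosome 13, 15463723 to 15730026), which acts chiefly as the repressor form in the absence of ligand, had no Pygo2 peak in a window of 0.466 Mb, the longest of the 8. The nearest was 1.51 Mb away at 13955149 to 13955315, inside B3galnt2, and 5.6% of all protein-coding genes were farther from a Pygo2 peak. Gli2 and Gli3 both exceed 200 kb, and both lack another protein-coding gene within 100 kb. Of the 989 protein-coding genes of over 200 kb, 52.1% had a Pygo2 peak inside or within 100 kb and 34.5% had one inside. At least 4 peaks inside, the number at Gli2, were found in 30 of these long genes (3.03%), and 474 (47.9%) had none in the window, as at Gli3.

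The promoter windows of Gli2 and Gli3 are set beside each other because the genes are paralogues with opposite outcomes for Pygo2. That of Gli2 lies at chr1:119053570-119053869 on the minus strand and that of Gli3 at chr13:15463473-15463772 on the plus strand (RefSeq, GRCm38.p6). Capitals mark the 120 bases of the Gli2 window that the Pygo2 peak covers, and no base of the Gli3 window lies under a peak.
Gli2: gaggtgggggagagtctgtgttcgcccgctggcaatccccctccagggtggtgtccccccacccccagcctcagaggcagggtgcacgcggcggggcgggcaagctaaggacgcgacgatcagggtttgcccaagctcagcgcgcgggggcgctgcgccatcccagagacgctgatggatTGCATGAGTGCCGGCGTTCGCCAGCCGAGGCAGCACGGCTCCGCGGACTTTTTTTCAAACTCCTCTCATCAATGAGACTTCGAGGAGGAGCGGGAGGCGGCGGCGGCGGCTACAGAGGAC
Gli3: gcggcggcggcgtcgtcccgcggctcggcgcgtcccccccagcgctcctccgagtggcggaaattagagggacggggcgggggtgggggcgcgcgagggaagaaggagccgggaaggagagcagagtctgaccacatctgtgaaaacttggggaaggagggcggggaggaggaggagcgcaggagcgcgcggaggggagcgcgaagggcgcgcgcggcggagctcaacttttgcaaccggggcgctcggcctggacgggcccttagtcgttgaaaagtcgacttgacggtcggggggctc

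Both windows are rich in G and C, at 67.3% for Gli2 and 71.0% for Gli3, against a median of 52.7% over the 32851 promoter windows of the table. The CpG dinucleotide occurs 28 times in the Gli2 window and 39 times in that of Gli3, against a median of 7. Of all windows of the table, 8.17% were overlapped by a Pygo2 peak and 0.749% by a β-catenin peak. Gli2 was the only Hedgehog gene among the 6 with a listed window (Ptch1, Hhip, Smo, Sufu, Gli2 and Gli3) whose window was overlapped by a peak.

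Gli1 (chromosome 10, 127329882 to 127341579), an activator and a standard readout of pathway activity, had 1 Pygo2 peak inside the gene at 127339053 to 127339219, 2.44 kb from its higher-coordinate end and 9.25 kb from the other. The other 2 peaks of its window belonged by distance to neighbours, in a stretch with 9 other protein-coding genes. The peak at 127311593 to 127311759 was 18.2 kb from Gli1 and 0.11 kb downstream of the listed start of Mars1, a methionyl-tRNA synthetase gene. That at 127266208 to 127266374 was 63.6 kb from Gli1, at the start of Dctn2 and inside the span of Kif5a. Within 500 kb of Gli1 there were 16 Pygo2 peaks, these 3 included. Sufu had 20 at that distance, Gli2 9, Ptch1 6, Smo 5, Hhip 2, and Shh and Gli3 0. The share of all protein-coding genes at 500 kb is not given, and the Gli1 window held the most genes per Mb of the 8 (47.2).

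Set side by side by role, the ligand had 0 peaks in 0.21 Mb. The transducers Smo and Sufu had 14 Pygo2 peaks in 0.518 Mb (27.0 per Mb), the pathway-responsive genes Ptch1, Hhip and Gli1 had 6 in 0.769 Mb (7.8 per Mb), and the transcription factor genes Gli1, Gli2 and Gli3 had 9 in 1.1 Mb (8.2 per Mb), with Gli1 in both of the last groups. The high value of the transducers came from Sufu with 44.5 per Mb, while Smo had 4.43 per Mb. Over the 8 genes together the density was 10.9 Pygo2 peaks per Mb, against 3.59 per Mb in the windows of all protein-coding genes, and it was 6.21 per Mb without Sufu. When each peak was counted only for its nearest gene, 11 of the 26 remained, of which Gli2 had 6, Ptch1 had 2, and Smo, Sufu and Gli1 had 1 each. With 1 to 3 genes per role, a difference between roles cannot be told apart from a difference between single genes.

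**Figure D2:**
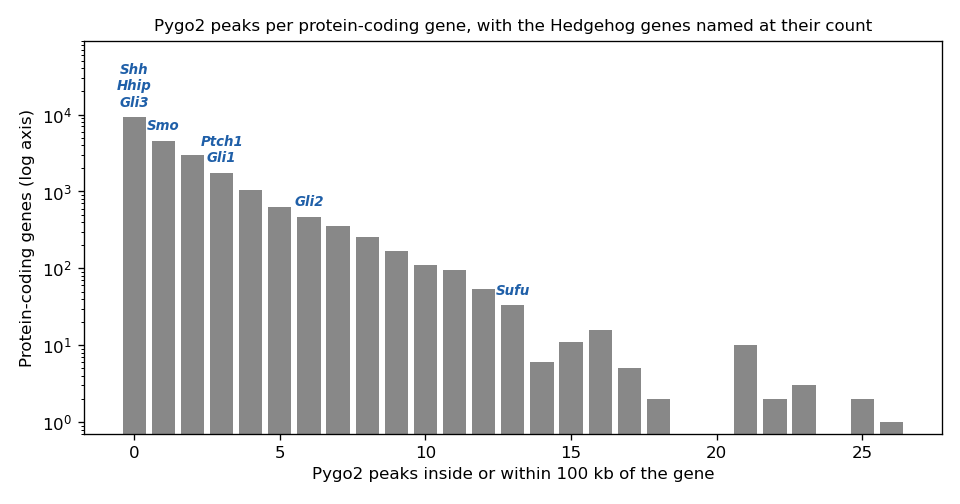
Number of protein-coding genes (vertical log axis) with each number of Pygo2 peaks inside or within 100 kb (horizontal axis), with the 8 Hedgehog genes written above the bar of their own count. Sufu with 13 peaks lies far along the axis, Gli2 with 6 is reached or exceeded by 7.3% of genes, Ptch1 and Gli1 with 3 by 23.0%, and Shh, Hhip and Gli3 stand at 0.

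The 26 Pygo2 peaks were also described by their distance to gene starts. Within 1 kb of a listed start of any gene lay 12 of the 26 (46.2%), against 44.2% of all 7150 Pygo2 peaks. Of the 11 peaks with a Hedgehog gene as the nearest gene, 3 (27.3%) were that close to a start, at Ptch1 and Gli2, and of the 15 peaks nearest to other genes 9 (60.0%) were. The split by nearest gene bears on these shares, since a peak at the start of a neighbour is nearest to that neighbour, and the difference was not tested. A start of Gli1 was not used here, and none of Trim8 was listed near its peaks. The 3 peaks nearest to Trim8 lay 0.568 kb to 1.38 kb from that gene, but their nearest listed start was that of Arl3, 55.8 kb to 72.9 kb away. The counts of peaks close to a start may therefore be too low. Peaks also came in close pairs: 8 of the 26 (30.8%) had another Pygo2 peak within 2 kb, against 12.8% of all Pygo2 peaks. These pairs stood at the starts of Ptch1 and Gli2 and, at neighbouring genes in the Sufu window, at Nfkb2 and beside Trim8. Both peaks of a pair are counted, so the share rests on these few places, and the difference was not tested. The caller reports fixed widths of 167 bp and keeps peaks at least 332 bp apart, and whether paired peaks are separate sites was not tested.

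The place of a peak in the deposited list was the sole available measure of rank, and it proved coarse. The Pygo2 list runs through the chromosomes in order, with coordinates rising, in 50 successive passes, and 17 passes of at least 100 peaks hold 91.5% of the peaks. Peaks of the same pass are in genome order, so only the pass can carry rank, and the headers do not state what the passes were sorted by. The Ptch1 pair was in passes 36 and 39, and the Gli2 pair at the start in passes 40 and 43. The peak inside Gli1 was in pass 43, and those at Smo and inside Sufu were in pass 47. Of the other Gli2 peaks, the one starting at 118983259 was in pass 47, and those starting at 118776794, 118918296 and 119084502 shared pass 49, next to the last. The earliest passes among the 26 were 31, for a peak beside Trim8, and 33, for the peak at Actr1a. Within Gli2 the pair at the start was thus listed before the 4 other peaks.

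**Figure D3:**
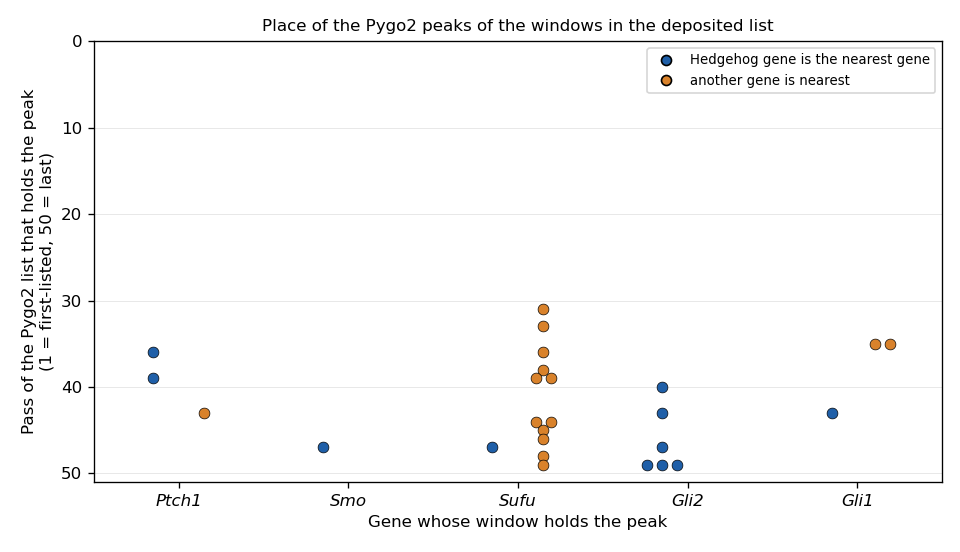
Pass of the Pygo2 list (vertical axis, first-listed at the top) for the 26 Pygo2 peaks in the windows, by gene, with blue points for peaks whose nearest gene is the Hedgehog gene and orange points for peaks nearer to another gene. All 26 peaks are in passes 31 to 49, with the Ptch1 pair in passes 36 and 39 and 3 Gli2 peaks together in pass 49.

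Promoter windows were searched on both strands for the TCF/LEF core CTTTGA or CTTTGT, the sequence read by the DNA-binding partners of β-catenin, and for the Gli site GACCACCCA, without overlap between these motifs. No CTTTGA and no GACCACCCA occurred in the windows of the 6 Hedgehog genes, where 16.0% and 0.253% of all promoter windows hold them. CTTTGT occurred once, in the window of Smo and on the reverse strand, where 18.7% of all windows hold it. The match begins 12 bases after the first base of the transcript, far from the Smo peak. It is shown in capitals in the window at chr6:29735247-29735546 on the plus strand.
Smo: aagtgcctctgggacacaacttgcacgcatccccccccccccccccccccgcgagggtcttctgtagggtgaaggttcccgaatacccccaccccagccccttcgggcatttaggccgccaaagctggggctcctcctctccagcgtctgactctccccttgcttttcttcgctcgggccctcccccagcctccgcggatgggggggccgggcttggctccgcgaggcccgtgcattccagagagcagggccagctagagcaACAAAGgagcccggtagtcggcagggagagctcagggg

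Among the promoter windows of all genes that the 26 peaks overlapped, which are 11 windows of 9 genes, a motif lay under a peak in 1 case, a CTTTGA 9 bases after the listed start of Cuedc2 in the Sufu window. Only 8 of the 26 peaks overlapped a promoter window, several of them in part, so the search was far from complete. The other peaks were not searched, among them those at Ptch1, Smo and Gli1, the one inside Sufu and all but 1 at Gli2.

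The wider pathway was described with 53 further genes, chosen with earlier results of these data known. Beside the 5 and 0 of the 8 core genes, 42 of the 53 (79.2%) had a Pygo2 peak inside or within 100 kb and 15 (28.3%) a β-catenin peak, with 57.6% and 17.2% of all protein-coding genes as the background. The median number of Pygo2 peaks per gene was 2 in the core genes, 2 in the wider list and 1 over all protein-coding genes. Within 10 kb, 25 of the 53 (47.2%) had a Pygo2 peak and 5 (9.43%) a β-catenin peak, beside backgrounds of 30.0% and 5.46%. Neighbouring genes of the wider list can share a peak: the one at 121125633 to 121125799 on chromosome 8 counts for Foxl1 and Foxc2 at 10 kb and for Foxf1 as well at 100 kb. An overlapping pair was found near 3 of them (5.66%), which is close to the share of all genes given above.

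The 3 genes with overlapping pairs were Disp1, Boc and Dhh, which serve ligand release, ligand binding and as a ligand. At Disp1 (chromosome 1, 183086264 to 183221537), which encodes the transporter that releases the lipid-modified ligand, the Pygo2 peak spanned 183147638 to 183147804 and the β-catenin peak 183147667 to 183147835, both inside the gene. Disp1 held another β-catenin peak inside at 183188307 to 183188475. At Boc (chromosome 16, 44485045 to 44558870), which encodes a ligand-binding co-receptor, the Pygo2 peak was at 44530875 to 44531041 and the β-catenin peak at 44530933 to 44531101, again inside the gene. Dhh (chromosome 15, 98881615 to 98898562) encodes Desert hedgehog, and its pair was at 98880976 to 98881142 for Pygo2 and 98881131 to 98881299 for β-catenin. That pair lay 0.4 kb outside Dhh and inside Rhebl1, so by distance it belongs to the neighbour, and a further pair was 87.1 kb from Dhh. By role, ligands and genes of their release had β-catenin peaks within 100 kb in 4 of 7 cases and co-receptors in 3 of 5, while transduction genes had them in 4 of 20 and responsive genes in 4 of 21.

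Pygo2 peaks stood at or near an end of several other pathway genes. At Gas1, a ligand co-receptor gene expressed in mesenchyme, the peak at 60177480 to 60177646 on chromosome 13 was 0.028 kb from the gene end, and the gene had 3 peaks in its window. Distances under 0.4 kb were also found at Ulk3 (0.188 kb), a kinase gene, at Prkaca (0.199 kb), the catalytic subunit of protein kinase A that primes Gli proteins for processing, at Kif7 (0.332 kb), a ciliary kinesin gene, at Fbxw11 (0.338 kb), a ubiquitin ligase subunit gene, and at Tulp3 (0.393 kb), which carries receptors into cilia. At Prkar1a, the regulatory subunit of the same kinase, the peak was 1.42 kb from an end. Of the responsive genes, Ccnd1 (cyclin D1) had a β-catenin peak at 0.805 kb and a Pygo2 peak at 1.67 kb that did not overlap it. Foxf2, Tbx2 and Foxl1, transcription factor genes of mesenchyme, had Pygo2 peaks at 1.18 kb, 1.64 kb and 1.97 kb. Among the pathway genes named for a peak near an end, Dhh had the overlapping pair described above.

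**Figure D4:**
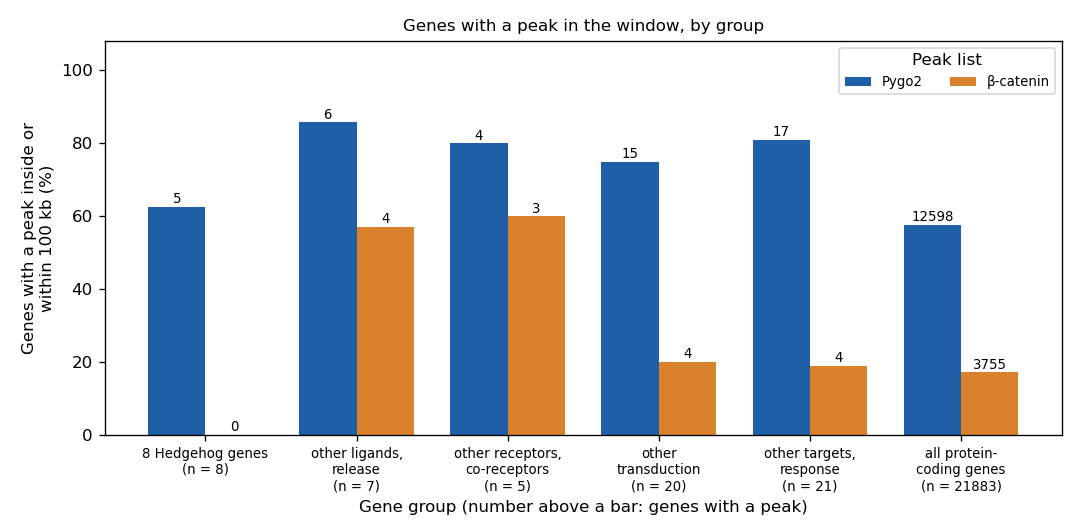
Share of genes with a peak inside or within 100 kb (vertical axis, %) for the 8 Hedgehog genes, for 4 groups of other pathway genes and for all protein-coding genes, with Pygo2 bars in blue, β-catenin bars in orange and the number of genes above each bar. The 8 Hedgehog genes stand at 5 genes for Pygo2 and 0 for β-catenin, where 15 of the 53 other pathway genes have a β-catenin peak.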

How the data were processed

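Chromatin was immunoprecipitated from pooled branchial arches and sequenced. Per the file headers, the authors called peaks with HOMER findPeaks in factor style, 1 library per list, against the IgG BA1 library, with at least 2-fold enrichment over this control and over the local 10 kb and a false discovery rate of 0.001. A Pygo2 peak needed 10 tags and a β-catenin peak 11, and the mean per peak was 15.5 and 14.6 tags. Bowtie, Bowtie2 and HOMER, with the build mm10, are listed in the submitters' processing notes; versions are not given in the sources used here. The deposited score is 1 in every line, so positions alone were used. The names of the lists speak of IgG with BA2, and the headers were followed.

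Coordinates are 1-based. Gene spans, promoter sequences and starts came from RefSeq tables of GRCm38.p6, the assembly of mm10; all 53 further pathway genes matched, Adrbk1 under its current symbol Grk2. The gene table has no strand and no exons. Peaks overlapped at 1 bp or more. Counting functions were tested on simulated data. Python 3.11.15, NumPy 2.4.6 and pandas 2.3.3 were used, with Matplotlib 3.10.9 for plots. No test was run, since each peak list comes from 1 library. The genes, lists and alternatives were chosen with earlier results of these data known. Named pathway genes are those with an overlapping pair and the 12 with the peak nearest to a gene end.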

Additional observations from a re-analysis of the deposited data

How the results depend on the processing

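The count of 5 Hedgehog genes with a Pygo2 peak was 5 with windows of 50 kb and 10 kb, with nearest genes only and without peaks within 1 kb of a gene end. It was 4 for gene bodies and for the first 50% of each list, and 3 when the Pygo2 list was shortened to the length of the β-catenin list. In the shortened list only Ptch1 kept a peak nearest to itself, and the peaks kept at Sufu and Gli1 were nearest to neighbours. In the first 50% Sufu again kept only peaks nearest to neighbours, while Ptch1, Gli2 and Gli1 kept peaks of their own. The 26 Pygo2 peaks became 19 at 50 kb, 10 at 10 kb, 8 in gene bodies, 11 with nearest genes only, 16 in the first 50% of the list, 5 in the shortened list and 15 without peaks within 1 kb of a gene end. Both limits on the list fall inside a pass (45 and 36), where order is by chromosome: at the shorter limit the Ptch1 peak at position 1055 was kept and the Sufu peak at position 1100 of the same pass was not. The counts of 0 for β-catenin and for overlapping pairs were 0 in these settings too, and with other overlap rules (50% of the narrower peak, centres within 500 bp). With no β-catenin peak at 100 kb they could not be otherwise. With a window of 500 kb, chosen after the data were seen, β-catenin peaks were near 1 gene (Gli1) and Pygo2 peaks near 6. The median distance of all protein-coding genes was 645 kb to a β-catenin peak and 62.5 kb to a Pygo2 peak. Apart from 10 kb, gene bodies and nearest genes, the share of all protein-coding genes is not given for these settings, so the counts lack a background. Fewer peaks or shorter windows by construction lower these counts. No paired analysis was possible because each group holds 1 library and no test was run. Leaving out a replicate was likewise not possible. Peaks rest on few tags, and sites below the calling minimum are not in the lists.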

Other observations

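The long interval beyond Shh, in which distant enhancers for limb and for oral and pharyngeal epithelium are known to lie, was inspected after the values in the windows had been seen. Between the end of Shh and the far end of Lmbr1 (chromosome 5, 28467101 to 29378421, 911 kb) lay 1 Pygo2 peak, inside Rnf32, and no β-catenin peak. The windows of all protein-coding genes held 3.59 Pygo2 and 0.516 β-catenin peaks per Mb. A lack of β-catenin peaks in an interval of this length therefore says little, and a lower density of Pygo2 peaks was not tested. Lmbr1 itself, which holds the limb enhancer in an intron, had 0 Pygo2 and 0 β-catenin peaks. The Pygo2 peak in Rnf32 was in pass 49 of the 50 passes of the list. The positions of the known enhancers were not used here, so the peak was not matched to any of them.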
